A study of Mus musculus with 20 samples.

Results

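Small nucleolar RNA (snoRNA) genes were examined in RNA-seq libraries of cultured mouse motoneurons. The members were chosen by FPKM, as the rows typed as snoRNA with a mean of at least 1 FPKM (fragments scaled to gene length and to the size of the library) over all 20 libraries, leaving out 4 genes by name. Of 1556 snoRNA rows among 39174 rows, 182 met this rule, while 1295 snoRNA rows were listed at 0 in every library. Copies with identical FPKM in every library were counted once, which left 162 distinct members. Since they were selected on the mean FPKM, a member seen in 1 group of libraries had to be high there to be listed, and counts over members are descriptions. At the threshold, Gm25777 (1.002 FPKM) and Snord42b (1.005 FPKM) were just inside, and Gm25788 (0.998 FPKM) and a copy of U3 (0.996 FPKM) were just outside.

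snoRNAs are short noncoding RNAs that guide chemical modification of other RNAs. Those of the C/D class carry the C and D boxes and direct methylation of riboses, those of the H/ACA class direct the conversion of uridine to pseudouridine, and the scaRNAs of Cajal bodies guide the modification of spliceosomal RNAs. A few snoRNAs, such as U3, U8, U13, U14, U17 and U22, are needed for the processing of precursor rRNA, and most mammalian snoRNAs are cut out of introns of host genes.

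The libraries came from primary motoneurons of embryonic CD-1 mouse spinal cord, enriched with an antibody to the p75 receptor and grown in microfluidic chambers that separate axons from the somatodendritic compartment. The Control group held 4 axonal and 4 somatodendritic libraries of cultures transduced with an empty lentiviral vector (titled GFP), and the Tdp-43 knockdown group held 6 of each compartment, transduced with a lentivirus that expresses a short hairpin RNA against Tdp-43. All were made from total RNA by whole-transcriptome PCR pre-amplification without selection of RNA classes. The Control libraries had been described in an earlier study, though both groups were processed in parallel, and the labels do not say which cultures came from separate animals or which 2 libraries share a culture, so that p-values measure the spread between these cultures.

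Tardbp, the gene of Tdp-43, lay between 19.0 and 30.8 FPKM in Control and between 0 and 8.54 FPKM in knockdown somatodendritic libraries, a difference of -3.07 on the log2 scale (limma adjusted p = 0.0232). In axonal libraries it spanned 13.4 to 32.3 FPKM in Control and 1.21 to 33.2 FPKM in knockdown, and the groups overlapped. The highest of these values belonged to the library labelled axonal knockdown replicate 1, which goes against its label. Relative depth, estimated from the confidence intervals that accompany the FPKM values and set to 1 in the deepest library, spanned 0.530 to 1 in Control and 0.103 to 0.760 in knockdown libraries. Mitochondrially encoded genes took 8.92 to 33.0% of the summed FPKM (median 12.6%) in Control axonal and 8.88 to 47.7% (median 39.8%) in knockdown axonal libraries, and 10.5 to 14.96% in somatodendritic libraries. Of 9 motoneuron markers, 8 were found, with Isl2, Mnx1 and Chat at 0 throughout. Their summed FPKM was 166 to 200 in Control and 65.6 to 144 in knockdown somatodendritic libraries. Astroglial markers summed to between 63.0 and 533 FPKM. In such bulk samples, fewer cells of a type and less RNA per cell cannot be told apart.

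The length, box motifs and copies of a member bear on how well these libraries could measure it. Sequences of 10 members with marked differences were read from the GENCODE M21 transcripts on GRCm38, 5′ to 3′. Capitals mark TGATGA where it lies in the first 20 bases and CTGA where it lies in the last 14 bases of a C/D member, and ACA within the last 7 bases of an H/ACA member. The first 4 act in rRNA processing. Gm26135, Snord15b and Gm25117 were lower in knockdown, and the final 3 were seen in Control somatodendritic but in no Control axonal library.
Rnu3b1: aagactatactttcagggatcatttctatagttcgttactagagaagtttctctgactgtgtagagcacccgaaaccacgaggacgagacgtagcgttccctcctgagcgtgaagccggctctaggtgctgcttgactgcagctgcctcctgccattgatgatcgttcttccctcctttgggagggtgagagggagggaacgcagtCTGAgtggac
Snord118: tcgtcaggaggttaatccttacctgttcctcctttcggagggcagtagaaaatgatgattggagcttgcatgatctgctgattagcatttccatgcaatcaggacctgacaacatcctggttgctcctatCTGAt
Snord22: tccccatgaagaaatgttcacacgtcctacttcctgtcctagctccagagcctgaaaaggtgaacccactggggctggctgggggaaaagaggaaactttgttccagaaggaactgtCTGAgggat
Snora73a: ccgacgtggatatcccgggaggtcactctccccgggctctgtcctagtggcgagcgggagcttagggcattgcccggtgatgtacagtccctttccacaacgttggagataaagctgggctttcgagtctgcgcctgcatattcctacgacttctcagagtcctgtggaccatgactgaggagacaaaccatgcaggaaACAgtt
Gm26135: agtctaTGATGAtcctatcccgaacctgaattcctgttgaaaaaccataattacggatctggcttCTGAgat
Snord15b: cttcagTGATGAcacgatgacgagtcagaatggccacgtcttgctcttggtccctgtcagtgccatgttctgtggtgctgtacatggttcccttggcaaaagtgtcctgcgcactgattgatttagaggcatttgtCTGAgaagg
Gm25117: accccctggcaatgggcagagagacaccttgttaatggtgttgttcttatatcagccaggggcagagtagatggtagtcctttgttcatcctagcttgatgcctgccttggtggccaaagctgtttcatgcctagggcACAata
Snord89: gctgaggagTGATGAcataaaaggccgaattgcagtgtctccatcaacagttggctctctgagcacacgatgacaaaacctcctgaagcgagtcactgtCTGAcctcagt
Snord34: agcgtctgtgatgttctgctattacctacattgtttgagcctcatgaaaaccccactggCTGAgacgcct
Gm23619: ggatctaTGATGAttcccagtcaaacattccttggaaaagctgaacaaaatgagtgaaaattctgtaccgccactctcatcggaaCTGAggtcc

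Rnu3b1 is a copy of U3 at chr11:87443237-87443452 on the plus strand, one of 4 copies in the Tex14 locus. Rnu3b1 and Rnu3b3 are identical over 216 bases, and Rnu3b4 is 215 bases long and 99.54% identical to Rnu3b1. Gm26135, in the noncoding gene 9330159M07Rik at chr9:88857693-88857764, and Gm24428, in an intron of Snhg5 at chr9:88521797-88521868, are identical over all 72 bases. Snora73a and Snora73b, both U17, lie in Rcc1 and Snhg3 at chr4:132352775-132352979 and chr4:132352322-132352526 and share 96.59% of positions. Fragments of such copies may have been divided among them, so that values of single copies are uncertain.

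Members were 60 to 414 bases long with a median of 96.5 bases. By symbol, annotation or motif, 85 distinct members were of the C/D class, 47 were H/ACA and 12 were scaRNAs. TGATGA near the start together with CTGA near the end was present in 50.28% of 181 members with a sequence and in 19.7% of all 1558 annotated snoRNA and scaRNA genes with one. ACA near the end without these boxes was present in 28.73% and 43.84%, and neither pattern in 20.99% and 36.46%, read on the annotated strand. A missing match says only that these letters are not in the window searched. A host gene on the same strand held 151 of the members, with 90 hosts in all, and 33 members lay in genes of ribosomal proteins. The largest group was the 24 members of the imprinted Snhg14 locus (Snord115 and Snord116 arrays), followed by 7 in Gas5. Fragments of an unspliced host intron that cover a member cannot be told apart from the mature snoRNA in these values.

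Most values were 0, and most others rested on 1 fragment or less. Of 3240 values over distinct members and libraries, 636 (19.63%) were above 0, and 63.05% of these corresponded to at most 1 fragment. For 91 members every value corresponded to a whole number of fragments within 0.05, and 70.99% of their 293 values above 0 were 1 fragment. The other 71 members held 343 values that need not be whole, some of them fractions of 1 fragment. For these members the implied fragments, and floors computed from them, are rough and can be too low. The value of 1 fragment depends on gene length and depth. For members of 60 to under 75 bases it was 19.8 FPKM in the deepest library and 36.3 FPKM in Control axonal replicate 4. A member listed at 0 may therefore have been present below the level of 1 fragment.

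snoRNAs were less abundant in knockdown than in Control libraries of both compartments. Their share of the summed FPKM in Control somatodendritic libraries was 0.357, 0.342, 0.316 and 0.277%, and in knockdown it ran from 0.0676 over a median of 0.115 to 0.125%. In Control axonal libraries the share was 0.324, 0.209, 0.174 and 0.187%, and in knockdown it ran from 0.0113 over a median of 0.0479 to 0.0617%. The groups did not overlap in either compartment, and the medians differed 2.87-fold and 4.13-fold. With mitochondrially encoded and rRNA genes left out of the denominator, the medians in axons were 0.256% and 0.0659%, 3.89-fold apart, without overlap. Between 55 and 88 distinct members were detected in each Control somatodendritic library and between 7 and 26 in each knockdown one. The corresponding numbers were 41 to 60 and 4 to 17 in axons. Knockdown axonal replicates 1 and 3 had relative depths of 0.760 and 0.757 and held 17 and 14 detected members, and replicate 1 is the library whose Tardbp value goes against its label. The deepest Control axonal library, at 0.674, held 41, the fewest of its group. The part of depth in these numbers was not tested. Fragments of members with whole values, divided by relative depth, ran from 48.9 to 82.0 in Control and 15.7 to 28.5 in knockdown somatodendritic libraries, and from 51.0 to 74.9 and 0 to 14.5 in axonal ones. No p is given for these sums. Of the 162 members, 90 were at 0 in all knockdown libraries and 6 were at 0 in all Control libraries. Since many members met the mean FPKM through Control, these counts partly restate that choice and are descriptions. They were not set beside all genes, and the part of depth in them was not tested. Genes above 0 numbered 12340 to 13372 in Control and 7632 to 15047 in knockdown axonal libraries. In somatodendritic libraries they numbered 13937 to 15453 in Control and 9617 to 14538 in knockdown.

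**Figure D1:**
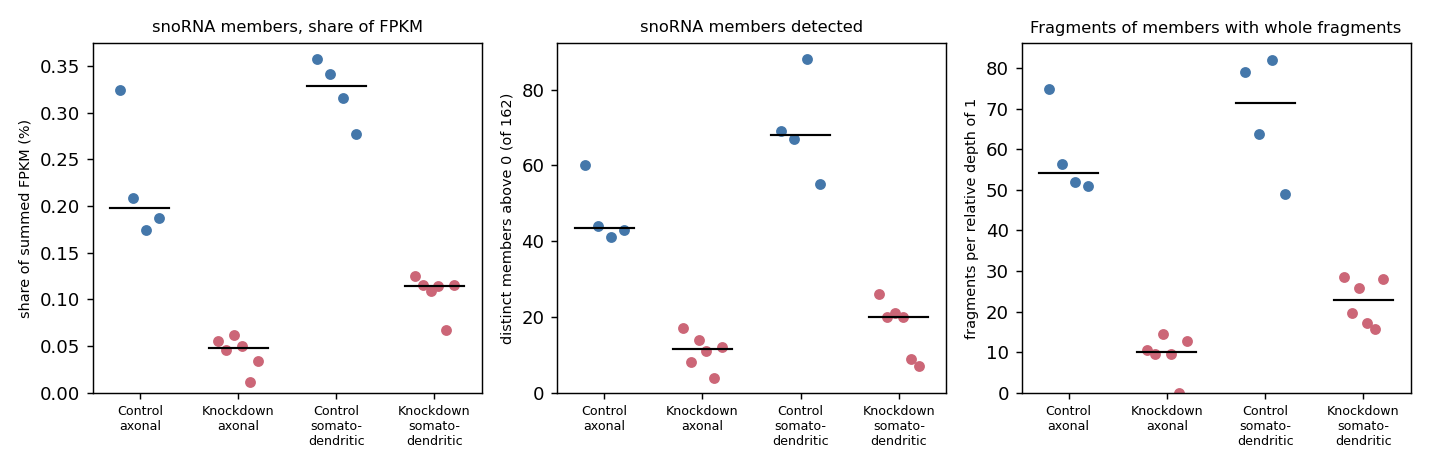
Share of the snoRNA members in the summed FPKM (%), number of distinct members above 0 of 162, and fragments of members with whole values per relative depth of 1, each point 1 library and each line the group median. In each panel the knockdown libraries lie below all Control libraries of the same compartment, for example at 4 to 17 against 41 to 60 members detected in axons.

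By length, summed FPKM and counts of members lower gave different orders. Members of up to 100 bases summed to 568, 181, 160 and 434 FPKM in Control axonal libraries. In knockdown axonal libraries they summed to 51.7 FPKM in replicate 1 and to 0 in the other 5. In the somatodendritic compartment the same 82 members summed to 934, 1156, 797 and 695 FPKM in Control and to between 41.5 and 352 FPKM in knockdown. Short members thus remained in all 6 knockdown somatodendritic libraries. The 64 members of over 100 and up to 200 bases had sums of 508 to 755 FPKM in Control and 0 to 92.9 FPKM in knockdown axons. The 16 members of over 200 bases had sums of 342 to 782 FPKM in Control and 87.3 to 281 FPKM in knockdown axons. Much of the long sum in knockdown was Scarna2. Without it the other 15 long members summed to 268 to 676 FPKM in Control and 83.2 to 144 FPKM in knockdown axons, and to 367 to 474 and 83.1 to 168 FPKM in the somatodendritic compartment. At an unadjusted p in limma, 6 of 37 short, 21 of 60 middle and 7 of 16 long members tested were lower in knockdown axons, with median differences of -1.31, -1.19 and -1.75. In the somatodendritic compartment these counts were 28 of 65, 21 of 52 and 11 of 15, with medians of -1.51, -1.51 and -2.51. All genes tested were lower in 6.56% of cases in axons and 9.26% in the somatodendritic compartment. The short class rests on few fragments in axons, with 18 over the Control group against 1 over the knockdown group, the latter in replicate 1. Members with whole values (38 short and 47 middle) gave 55 against 14 and 103 against 27 fragments in the somatodendritic compartment.

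**Figure D2:**
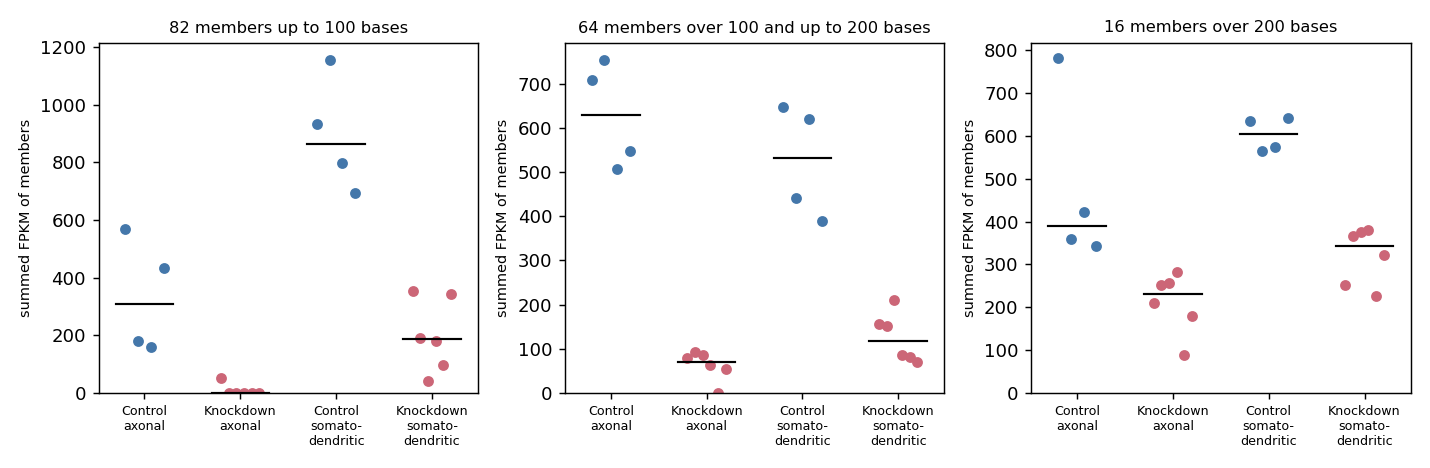
Summed FPKM of distinct snoRNA members by gene length, each point 1 library and each line the group median. Members of up to 100 bases are at 0 in 5 of 6 knockdown axonal libraries, while those of over 200 bases lie at 87.3 to 281 FPKM there.

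Some other types of short genes were lower as well. Of the genes of up to 100 bases that were no members, 21 of 31 tested were lower in knockdown axons and 10 of 46 in the knockdown somatodendritic compartment at an unadjusted p under 0.05, whereas among other genes of over 200 bases the shares were 5.99% and 8.62%. Mitochondrial tRNA genes made up most of the 21, with 16 of 17 tested lower in axons and a median difference of -4.55, and without them 5 of 14 were lower in axons and 5 of 33 in the somatodendritic compartment. Of snRNA genes of up to 200 bases, 17 of 49 were lower and 0 higher in axons. The miRNA genes of that length were lower in 7 of 23 cases in axons (median -1.02) and 5 of 17 in the somatodendritic compartment (median -1.04), with 0 higher in either. The misc_RNA genes had 1 lower and 1 higher of 20 in axons (median 0.24), and 3 lower and 0 higher of 19 in the somatodendritic compartment (median -0.27). The pseudogenes had 1 lower and 3 higher of 25 in axons (median 0.38), and 5 lower and 1 higher of 28 in the somatodendritic compartment (median -0.93). In the somatodendritic compartment, 18 of 51 such snRNA genes were lower and 3 higher with a median of -1.10. The part of fragment length in the differences of the snoRNAs was not tested.

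In the somatodendritic compartment, 132 distinct members could be tested (limma on log2 of scaled FPKM plus 1), of which 60 were lower in knockdown at an unadjusted p under 0.05 and 0 were higher. Among all genes tested, 9.26% were lower and 4.58% higher. After adjustment over all genes (Benjamini-Hochberg, adjusted p under 0.05), 10 members with 7 different sequences were lower and 0 were higher, against 0.747% lower and 0.218% higher of all genes. The median difference was -1.55 over the members and -0.14 over all genes tested. Many members met the mean through Control, where 43.06% of values were above 0 against 10.6% in knockdown. This median, like those of groups of members, partly restates that choice and is a description. At an unadjusted p, 35 of 68 C/D members, 14 of 38 H/ACA members and 6 of 11 scaRNAs were lower. The adjusted count was 6 with the replicate number as a block and 23 with libraries weighted by limma.

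In axons, 113 members could be tested, of which 34 were lower and 1 was higher in knockdown at an unadjusted p, against 6.56% and 2.16% of all genes. After adjustment 8 members with 6 different sequences were lower and 0 higher, against 0.381% and 0.0144%. The median difference was -1.31 over the members and -0.18 over all genes tested. Here too many members met the mean through Control, with 29.01% of values above 0 against 6.79% in knockdown, so that member medians partly restate that choice. H/ACA members were lower in 16 of 45 cases, C/D members in 13 of 47 and scaRNAs in 2 of 10. Without Control axonal replicate 1, which had the highest snoRNA share of its group, 21 members passed the unadjusted threshold and 7 the adjusted one.

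**Figure D3:**
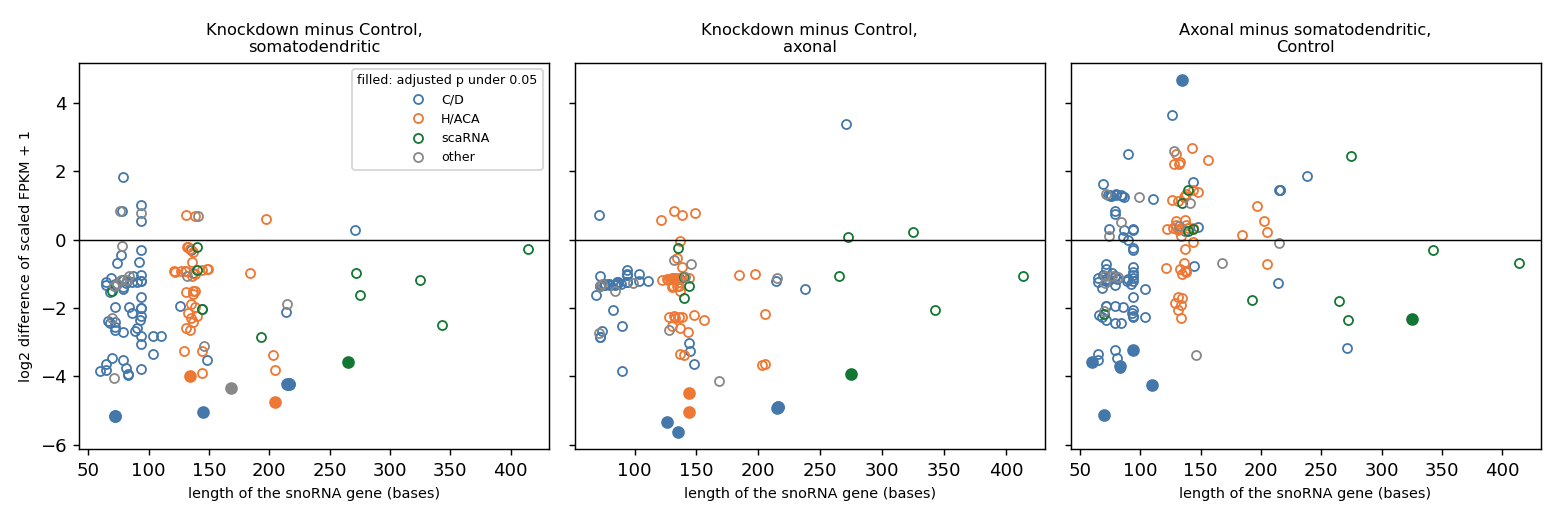
Log2 difference of scaled FPKM plus 1 against gene length (bases) for the members tested in 3 comparisons, colored by class, filled where the limma adjusted p is under 0.05. In both knockdown comparisons the filled points lie below 0, and they include members of over 200 bases such as Rnu3b1.

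Among snoRNAs of rRNA processing, U3 was lower in knockdown in both compartments. U3 binds the precursor rRNA and is required for cleavages that release the small subunit rRNA. Rnu3b1 was at 43.3, 33.2, 27.6 and 24.1 FPKM in Control somatodendritic libraries, and in knockdown at 0 to 3.05 with a median of 1.15 FPKM. In axons the Control values were 128, 54.5, 66.5 and 28.8 FPKM, and those of knockdown ran from 0 to 15.4 FPKM with a median of 1.67. The groups did not overlap in either compartment. The differences were -4.23 ± 0.51 (SE) with a limma adjusted p of 0.00118 and -4.89 ± 0.73 with an adjusted p of 0.00279, and Rnu3b3 and Rnu3b4 gave nearly the same values because their sequences are shared. Rnu3a, a U3 gene on chromosome 10, was above 0 in 4 Control and 1 knockdown libraries, at up to 25.7 FPKM, and passed no threshold.

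Snord118 is U8, which acts in the maturation of the large subunit rRNAs. It was at 17.1, 37.4, 60.8 and 58.1 FPKM in Control axons and at 0 in all knockdown axons. Among somatodendritic libraries it was at 13.8 FPKM in 1 Control library, at 19.5 FPKM in 1 knockdown library and at 0 in the others. The axonal groups did not overlap, with a limma adjusted p of 5.8e-05 and a level at least 4.18-fold higher in Control, counting 3 fragments over the knockdown group. Snord22 is U22, from an intron of Snhg1. It was at 69.7, 55.8, 16.1 and 123 FPKM in Control axons, and in knockdown axons at 28.4 FPKM in replicate 1 and 0 in the others. The groups overlapped in deposited FPKM, and the difference was -5.32 ± 0.87 (limma adjusted p = 0.00657), which missed the threshold without Control axonal replicate 1 (-5.22). Without the axonal libraries with mitochondrial shares over 30%, an alternative chosen after seeing the data, it was -3.40 and also missed it.

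The U17 copy Snora73a was at 40.8, 55.3, 25.4 and 25.5 FPKM in Control somatodendritic libraries, and in knockdown at 9.70 FPKM in replicate 4 and 0 in the others. These groups did not overlap, and the difference was -4.74 ± 0.65 (limma adjusted p = 0.00285). In axons its groups overlapped, at 0 to 79.5 FPKM in Control and 0 to 26.3 FPKM in knockdown. Snora73b was at 67.9, 44.2, 46.2 and 70.8 FPKM in Control and 0 to 26.4 FPKM in knockdown somatodendritic libraries, also without overlap (-3.82 ± 0.99, limma adjusted p = 0.0939). Snord13 (U13), which has no annotated host, was above 0 in 4 Control and 1 knockdown libraries, with 75.4 FPKM in Control axonal replicate 4 as its highest value. The 3 members of the U14 group, Snord14c, Snord14d and Snord14e in introns of Hspa8, were each above 0 in 2 Control libraries and in no knockdown library. The confidence limits implied under 1 fragment in all for each compartment, which is rough and can be too low because these values are not whole.

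Over the 12 members of this group, 7 of 11 tested were lower in each compartment at an unadjusted p, with medians of -3.33 in the somatodendritic compartment and -3.65 in axons against -0.14 and -0.18 over all genes, of which 9.26% and 6.56% were lower. Their summed FPKM ran from 196 to 335 in Control and 0 to 53.9 in knockdown somatodendritic libraries, and from 275 to 653 and 21.3 to 57.9 in axons. These groups did not overlap. Since U3 and U17 are each present as several copies, the members are not independent.

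Guide snoRNAs of the C/D class included the members with the smallest p in the somatodendritic compartment. Gm26135 was at 43.8, 47.2, 19.3 and 25.4 FPKM in Control somatodendritic libraries and at 0 in all knockdown libraries (-5.16 ± 0.37, limma adjusted p = 2e-05), and its identical copy Gm24428 had nearly the same values. In fragments the difference was small. The confidence limits implied 3.93 fragments over the Control group against 0, a floor of 1.16-fold. Both numbers are rough and can be too low, since the values of this member are not whole. At 60 to under 75 bases, 1 fragment was worth a median of 28.1, 32.4, 19.8 and 28.2 FPKM in these Control libraries. The fitted difference depends on the pseudocount. Snord15b, in an intron of the ribosomal protein gene Rps3 at chr7:99479563-99479707, was at 50.5, 46.9, 47.4 and 61.4 FPKM in Control somatodendritic libraries, and in knockdown at 27.4 FPKM in replicate 4 and 0 in the others. Its groups did not overlap (-5.05 ± 0.83, limma adjusted p = 0.0115), while in axons they did, at 0 to 68.9 and 0 to 30.2 FPKM. Gm22357, the Gas5 member of highest mean, was at 131, 154, 56.0 and 128 FPKM in Control somatodendritic libraries and had a median of 29.99 and a highest value of 82.8 FPKM in knockdown (-3.93 ± 1.36, unadjusted p = 0.0132 and adjusted p = 0.208 in limma).

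Gm25117, an H/ACA member in Nap1l1 at chr10:111481493-111481636, was the H/ACA snoRNA of lowest adjusted p in axons. It was at 48.0, 17.5, 28.5 and 18.2 FPKM in Control axons and at 0 in all knockdown axons. The level was at least 2.93-fold higher in Control (limma adjusted p = 9.5e-05). In the somatodendritic compartment Gm25117 was at 38.7, 47.2, 48.2 and 25.4 FPKM in Control and at 34.6 and 16.5 FPKM in 2 of 6 knockdown libraries, and the groups overlapped. Gm23262, in Eif4g2, was at 47.8, 37.5, 15.5 and 36.6 FPKM in Control and at 29.6 FPKM in 1 of 6 knockdown somatodendritic libraries (-4.35 ± 0.89, limma adjusted p = 0.0404), and this call was lost when any of 8 of the 10 libraries was left out. The remaining calls, named after their values were seen, were the H/ACA members Gm26397 in Tomm20 (somatodendritic, 4 implied fragments in Control against 0) and Gm22988 in Eif4a1 (axonal, 2.46 implied fragments in Control against 0). Gm23547, in Phb2, was the only member higher in knockdown axons at an unadjusted p. It was at 0 in all Control axons, and in knockdown at 13.4, 32.3, 6.75, 32.0, 0 and 21.8 FPKM (limma unadjusted p = 0.00138, adjusted p = 0.158). Its floor of 1.75-fold is rough, since its values are not whole fragments.

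Among the scaRNAs, Scarna2 overlapped between Control and knockdown, while 6 of the 11 scaRNAs tested were lower in the somatodendritic compartment and 2 of 10 in axons at an unadjusted p, against 9.26% and 6.56% of all genes. Scarna2, the member of highest mean, was at 161, 197, 194 and 239 FPKM in Control and 144 to 240 with a median of 186 FPKM in knockdown somatodendritic libraries (-0.29 ± 0.17, limma unadjusted p = 0.114). In axons it was at 106, 91.5, 89.3 and 56.9 FPKM in Control, and in knockdown at 0 in replicate 5, the shallowest library, and at 90.3 to 169 FPKM in the others. Both pairs of groups overlapped. Without Scarna2 the median snoRNA share was 0.187% in Control and 0.0267% in knockdown axons, 6.99-fold apart in place of 4.13-fold. Scarna10 was at 91.4, 83.7, 72.6 and 101.4 FPKM in Control and 16.7 to 84.3 FPKM in knockdown somatodendritic libraries (-1.19 ± 0.40, limma unadjusted p = 0.0117, adjusted p = 0.197). In axons its difference was 0.23, in the other direction, and passed no threshold. Scarna6 was at 28.0, 8.56, 10.5 and 20.7 FPKM in Control and at 8.98 FPKM in 1 of 6 knockdown somatodendritic libraries (-3.59 ± 0.67, limma adjusted p = 0.0244). Scarna13, in Snhg10 at chr12:105031075-105031349, was at 8.38, 27.5, 7.47 and 9.51 FPKM in Control axons and at 0 in all knockdown libraries of both compartments, at least 2.51-fold higher in Control axons (limma adjusted p = 0.00221). The overlap of the summed scaRNAs rested on Scarna2 in the somatodendritic compartment. The summed FPKM of the 12 scaRNAs overlapped between Control and knockdown in both compartments, at 361 to 421 against 181 to 376 in the somatodendritic compartment and 108 to 211 against 41.0 to 261 in axons. Without Scarna2 the sums were 181 to 226 against 36.6 to 169 FPKM in the somatodendritic compartment, with no overlap, and 51.5 to 119.7 against 41.0 to 92.3 FPKM in axons, with overlap.

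**Figure D4:**
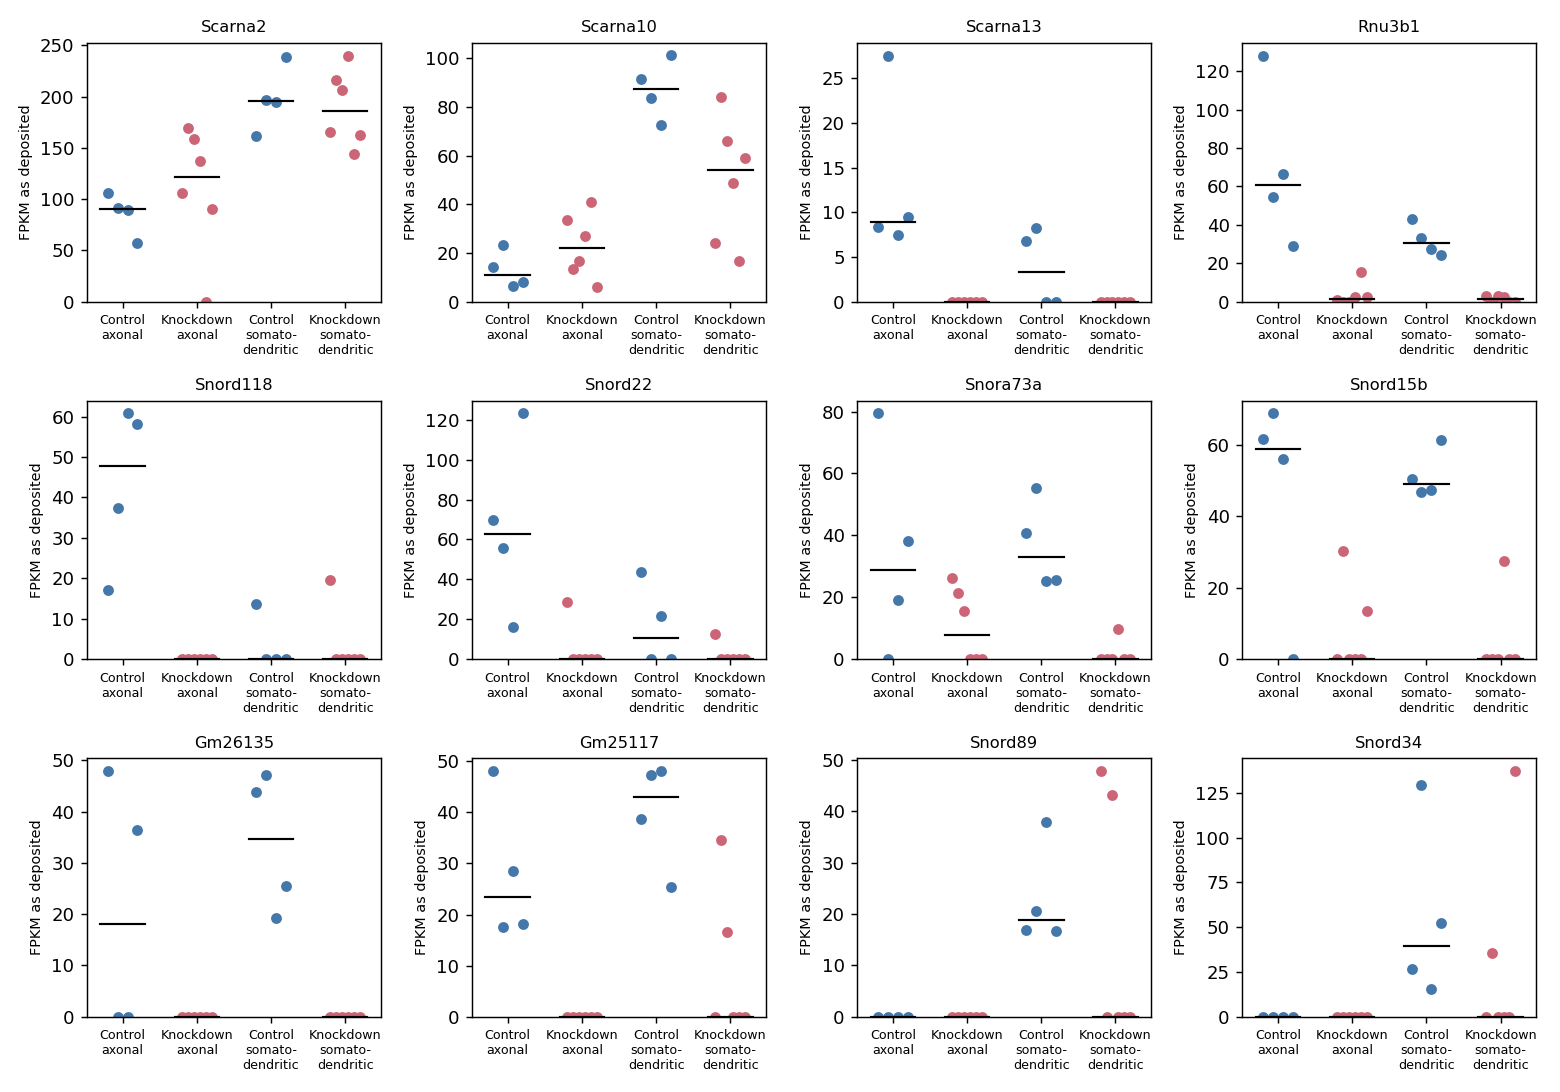
FPKM of 12 members in every library, each point 1 library and each line the group median; the vertical scale differs between panels. Scarna2 overlaps between Control and knockdown in both compartments, whereas Rnu3b1 does not overlap in either.

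In the somatodendritic compartment, summed FPKM of members in the Snhg14 locus and in Gas5 was lower in knockdown, while in axons no tested member of either was called. In the Snhg14 locus the 24 members summed to 211, 184, 184 and 115 FPKM in Control somatodendritic libraries and to between 0 and 53.3 FPKM in knockdown, and all 24 were at 0 in each knockdown axonal library, as were 15 of the 24 in all Control axonal libraries. At an unadjusted p, 9 of 21 tested were lower in the knockdown somatodendritic compartment and 0 of 8 in axons, against 9.26% and 6.56% of all genes. The 7 members in Gas5, itself a noncoding host transcript, summed to 123 to 220 FPKM in Control and 0 to 96.8 FPKM in knockdown somatodendritic libraries, with 3 of 5 tested lower there and 0 of 4 in axons. The 33 members in ribosomal protein genes were lower in 11 of 29 cases in the somatodendritic compartment and 9 of 21 in axons, against the same 9.26% and 6.56%.

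Most host transcripts of these snoRNAs passed the threshold in neither direction. Of 75 hosts with a tested member in the somatodendritic compartment, 66 could themselves be tested. Among these 66, 32 had a member that was lower at an unadjusted p, and of the 32 hosts 4 were themselves lower, 3 were higher and 25 passed in neither direction. Of all genes tested, 9.26% were lower and 4.58% higher. The median difference over the 66 was -0.19 for the hosts and -1.52 for the medians of their members. The latter partly restates the choice of members by their mean, so that the 2 medians are not directly comparable. The other 9 hosts were not tested, and 6 of them had a lower member. Some, such as Snhg14, were not among the deposited genes. Others, such as Tex14, which holds the Rnu3b copies, were deposited but did not reach the mean needed for testing. In axons 71 of 78 hosts could be tested. Of these, 22 had a lower member, and of the 22 hosts 5 were lower and 2 higher, against 6.56% and 2.16% of all genes. Medians over the 71 were -0.24 for hosts and -1.28 for members, with the same limit. Of the 7 hosts not tested, 4 had a lower member. Gas5 differed by -0.39 (limma unadjusted p = 0.109) in the somatodendritic compartment and by 0.46 in axons. Nap1l1 differed by -0.05 in axons while Gm25117 was at 0 there. Rps3, which encodes a protein of the small ribosomal subunit, fell by 0.93 (limma adjusted p = 0.0394) in the somatodendritic compartment and by 2.04 (adjusted p = 0.0163) in axons, and Snhg1 was lower at an unadjusted p in both (-1.60 and -1.54).

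**Figure D5:**
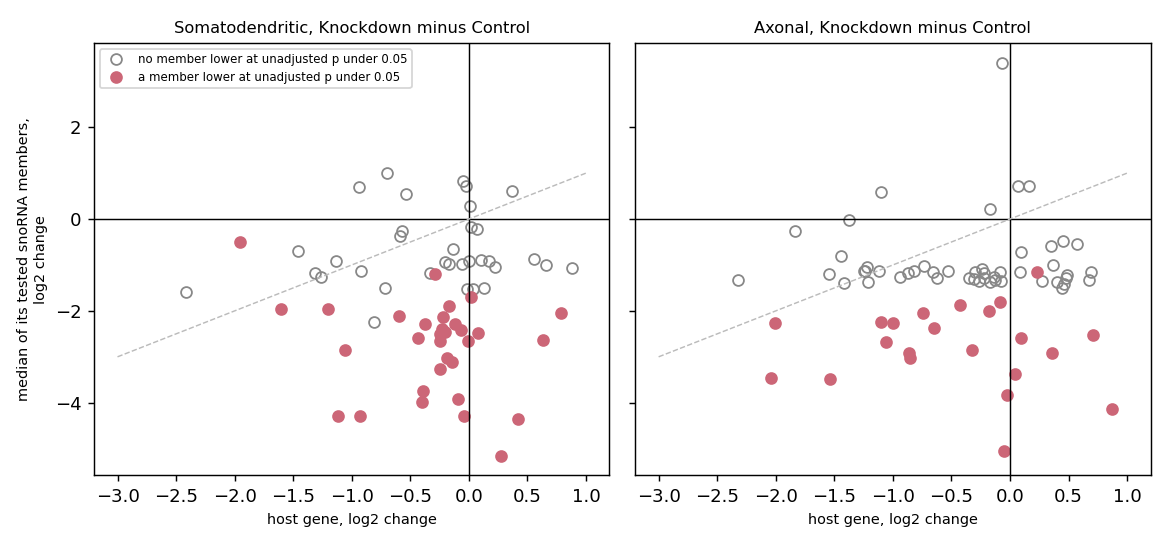
Median log2 difference of the tested snoRNA members of a host gene against the log2 difference of the host (knockdown minus Control), each point 1 host, filled where a member is lower at an unadjusted p under 0.05; the dashed line marks equal change. The medians over hosts are -0.19 for hosts and -1.52 for members in the somatodendritic compartment.

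Proteins of the snoRNA particles were read beside the members. The C/D core list (Fbl, Nop56, Nop58 and Snu13), the H/ACA core list (Dkc1, Nhp2, Nop10 and Gar1), 5 proteins of the U3 particle and 13 tested factors of assembly and trafficking gave 0 calls at an adjusted p under 0.05 in limma in either knockdown comparison. Dkc1, the pseudouridine synthase, was lower in the knockdown somatodendritic compartment without adjustment (-1.33, limma unadjusted p = 0.0381, adjusted p = 0.324). A single protein of the U3 particle was higher there at an unadjusted p, and none of the proteins passed in axons. Of all genes, 9.26% were lower and 4.58% higher in the somatodendritic compartment without adjustment, and 6.56% and 2.16% in axons. After adjustment these shares were 0.747% and 0.218%, and 0.381% and 0.0144%. The medians of these lists in the somatodendritic compartment lay between -0.27 and 0.00. Malat1, a nuclear noncoding RNA, was at 312 to 489 FPKM in Control and 1041 to 1800 FPKM in knockdown axons (1.33, limma adjusted p = 0.0729). Of the 9 nuclear RNAs tested with it, 2 were higher and 0 lower in knockdown axons at an unadjusted p, against 2.16% and 6.56% of all genes. After adjustment 0 passed in limma, and the median was 0.27. Among somatodendritic libraries 0 of them passed at an unadjusted p in limma, with a median of 0.03.

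The second question of the design was how snoRNAs differ between the compartments. In Control, 154 members could be tested, of which 18 were lower and 7 higher in axons at an unadjusted p, against 11.7% lower and 11.2% higher of all genes. After adjustment 6 were lower and 1 was higher, against 2.89% and 3.9%. The members lower in axons made up 11.69% of those tested before and 3.896% after adjustment, and the members higher 4.545% and 0.649%. The median difference was -0.68 over the members and -0.04 over all genes tested. The classes differed in their counts, with 14 of 82 C/D members lower and 5 higher (median -1.10), and with 1 of 45 H/ACA members lower and 1 higher (median 0.31). The sums of members of up to 100 bases did not overlap, at 160 to 568 FPKM in axons and 695 to 1156 FPKM in the somatodendritic compartment, while those of over 100 and up to 200 bases did. Without scaling of the libraries, 15 members instead of 7 passed the adjusted threshold.

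Snord89, in the noncoding gene Gm15832 at chr1:39548745-39548854, was at 16.9, 20.6, 37.8 and 16.6 FPKM in Control somatodendritic and at 0 in all axonal libraries of both groups (-4.25 ± 0.41 in Control, limma adjusted p = 0.000726, at least 1.51-fold lower in axons). Snord34, in Rpl13a at chr7:45126601-45126670, was at 26.5, 130, 15.3 and 52.3 FPKM in Control somatodendritic libraries and likewise at 0 in all axonal libraries (-5.14 ± 0.58, limma adjusted p = 0.00119). Its floor of 1.38-fold is rough, since its values are not whole fragments. In knockdown somatodendritic libraries it was at 35.6 and 137 FPKM in replicates 2 and 6 and at 0 in the others. Gm23619, of the 94-base array in Snhg14 at chr7:59804471-59804564, was at 19.8, 8.04, 9.84 and 6.49 FPKM in Control somatodendritic libraries and at 0 in all axonal ones (-3.24 ± 0.46, limma adjusted p = 0.00373). It rested on few fragments, and the 1.67 implied in all is rough and can be too low for a member with identical copies. Snord32a in Rpl13a and Gm23212 in Gas5 passed narrowly (limma adjusted p = 0.0485 and 0.0495), each seen in 3 of 4 Control somatodendritic libraries, and both calls were lost without any 1 of the 4 Control axonal libraries. Scarna10 was lower in Control axons without overlap, at 14.2, 23.3, 6.32 and 8.05 FPKM (-2.31 ± 0.35, limma adjusted p = 0.00457). Scarna2 was lower there too without overlap of the groups (-0.69 ± 0.23, unadjusted p = 0.0107, adjusted p = 0.0931).

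Higher in Control axons was Snord118 (4.66 ± 0.79, limma adjusted p = 0.00719), at 17.1 to 60.8 FPKM against 0 to 13.8 FPKM. Among the 12 members of rRNA processing, 5 were higher and 0 lower in Control axons at an unadjusted p, against 11.2% and 11.7% of all genes. Of the 5, 3 are the Rnu3b copies, which share sequence. Rnu3b1 was higher by 1.45 ± 0.40 (limma adjusted p = 0.0557), with a range of 28.8 to 128 FPKM in axons against 24.1 to 43.3 FPKM. Snord22 differed by 3.64 ± 1.13 (adjusted p = 0.0793), and Scarna13 by 2.44 ± 0.75 (adjusted p = 0.0772). For comparison, the nuclear noncoding RNAs Rn7sk and Rian were lower in Control axons (-1.26 and -1.06, limma adjusted p = 0.00508 and 0.00631). They were the only 2 adjusted calls among 9 nuclear RNAs tested, of which 3 were lower and 0 higher at an unadjusted p, with a median of -0.35. Markers of mesenchyme summed to 11.91 to 47.88 FPKM in Control axonal and 1.43 to 11.86 FPKM in Control somatodendritic libraries. In knockdown the sums were 11.4 to 81.1 and 0 to 13.9 FPKM. Their part in these differences was not tested.

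In knockdown, 61 members could be tested between compartments, and 0 passed the adjusted threshold in limma, against 1.26% of all genes in either direction. At an unadjusted p, 1 member was lower and 0 were higher, against 8.68% and 7.83% of all genes. This was Snord21, in Rpl5, with 205, 28.0 and 2.37 FPKM in 3 knockdown somatodendritic libraries and about 0 in the axonal ones (-2.34, limma unadjusted p = 0.0488, adjusted p = 0.3003). Without knockdown somatodendritic replicate 6, the library with 205 FPKM, it did not pass (-1.27), and leaving out any of the other libraries changed the number of members past the threshold to between 0 and 6. A test of whether the knockdown difference itself differed between compartments gave 0 of 161 members at an adjusted p under 0.05 (limma, 0.071% of all genes) and 3 when Control somatodendritic replicate 1 or 4 was left out. At an unadjusted p it gave 11 members with a more negative difference in axons and 21 with a more negative one in the somatodendritic compartment (2.94% and 2.71% of all genes). Of the 21, 19 were at 0 in all 10 axonal libraries, and of the 11, 8 were at 0 in all 10 somatodendritic ones, so that their result restates the difference in the other compartment and nothing is read from these counts. Snord118 had the smallest p of these (-5.55 ± 1.11, limma adjusted p = 0.0660). The 4 next, Snord32a, Gm23212, Gm24489 and Gm23619, were among the 19 at 0 in axons.

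A two-sided exact permutation test of the mean scaled FPKM was run on the named members. Many of these were named for their differences in the same libraries, so that its p restates that choice and is given as a description of separation. In the somatodendritic compartment, Rnu3b1, Snora73a, Snora73b, Snord15b, Gm26135 and Scarna6 reached p = 0.00476, the smallest that the exact test allows with the 210 assignments of 4 against 6 libraries. In axons Rnu3b1, Snord118, Snord22, Gm25117 and Scarna13 reached the same exact p. In the deposited FPKM the groups of Snord22 in axons, of Scarna6 in the somatodendritic compartment and of Scarna13 between the compartments in Control overlapped, and after scaling they did not, with 21.3 FPKM as the lowest Control and 20.8 FPKM as the highest knockdown value for Snord22. Between the compartments in Control, Snord118, Scarna13, Snord89, Snord34, Gm23619, Scarna2 and Scarna10 reached p = 0.0286, the smallest that the exact test allows for 4 against 4.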

How the data were processed

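RNA of the axonal and somatodendritic compartment was sequenced in 20 libraries, and the authors deposited gene-level FPKM with confidence limits per library. The submitters' processing notes name Cufflinks 2.2.1, FastQC 0.10.1 and GRCm38, and the deposited tables are labelled as STAR alignments of trimmed reads. Whether strand was used in counting is not given in the sources used here. No count table was used, so no count model was fitted. From the FPKM, each comparison's libraries were brought to a common scale (median ratio to the geometric mean library, from genes at 1 FPKM or more in each library), and genes with a mean of at least 1 scaled FPKM were tested on log2(scaled FPKM + 1) with limma 3.58.1 in R 4.3.3 (lmFit, eBayes with trend, two-sided). Adding 1 understates the change of genes near 1 FPKM. For members of 130 to 150 bases, however, 1 fragment was worth a median of 10.3 to 68.7 FPKM, depending on the library. For members near the floor, a difference between 0 and 1 fragment thus appears as a large fitted change. P-values were adjusted (Benjamini-Hochberg) over all genes tested, and calls were made at 0.05 with and without adjustment. The members and lists were chosen with earlier results of these data known. Python 3.11.15, pandas 2.3.3, numpy 2.4.6 and scipy 1.17.1 were used for sums and exact tests.

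Implied fragments were computed from the deposited confidence limits, taking the half-width as 2 Poisson standard deviations, and relative depth from 680 genes. The absolute depth is not given in the FPKM files. For members without whole values, implied fragments and the floors from them are rough and can be too low. Floors of 3 fragments over a group cover counting error only, and pre-amplified fragments are not independent molecules. Genes named in the text were the 10 distinct members with the highest mean, the 5 largest falls and rises among adjusted calls of each comparison filled up to 3 by unadjusted p, members with known roles in rRNA processing, scaRNAs and imprinted arrays, host groups, and members at the threshold. Alternatives were other scalings, pseudocounts of 0.1 and 5, no filter or a mean of at least 5 FPKM, array weights, 1 fit over all libraries, a replicate block, leaving out each library or shallow libraries, near-identical copies counted once and a higher member mean. The models were tested on simulated data. Host genes and sequences came from GENCODE M21, in which 181 of 182 members were found. Hosts were matched to the files by gene ID, and Snhg1 and Dancr, listed there under another ID, by symbol.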

Additional observations from a re-analysis of the deposited data

Results flagged for a closer look

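Dixon's test at the 95% level was applied to 38 groups of libraries, and 6 values stood apart. Chance gives about 1 in 20 such groups. In Control axonal replicate 1, 60 distinct snoRNA members were detected, with 44 in the next library. In knockdown axonal replicate 5, the library of lowest relative depth (0.103), fragments per relative depth were 0, with 9.48 in the next library. In the same library the U3 copies Rnu3b1, Rnu3b3 and Rnu3b4 were at 15.4, 15.4 and 15.5 FPKM, with 2.53 to 2.55 FPKM in the next; the copies share sequence, so that these are 1 pattern. In knockdown somatodendritic replicate 5 the snoRNA share was 0.0676% of the summed FPKM, with 0.109% in the next library.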

How the results depend on the processing

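No difference of the 26 named changes reversed in sign under any alternative; 532 settings kept the call and 70 lost it, and 2 of 5 in the somatodendritic compartment, 3 of 6 in axons, 6 of 8 between compartments in Control, 0 of 1 in knockdown and 5 of 6 differences between compartments passed in every setting (the adjusted threshold where it was met, otherwise the unadjusted one). With mitochondrial and rRNA genes left out of the denominator, the median snoRNA share was 0.380% in Control and 0.129% in knockdown somatodendritic libraries (2.94-fold), and 0.256% and 0.0659% in axonal ones (3.89-fold); without Scarna2 it was 0.187% against 0.0267% in axonal (6.99-fold, with 4.13-fold including it) and 0.298% against 0.0766% in somatodendritic libraries (3.89-fold, with 2.87-fold including it). Adjusted calls in the somatodendritic compartment (10) became 20 with a pseudocount of 5, 23 with array weights, 16 in 1 fit over all libraries and 6 with the replicate block, and 8 to 15 when each library was left out; unadjusted calls (60) became 34 at a mean of at least 5 FPKM, 37 with the block, 35 without shallow libraries, 15 for members of at least 10 FPKM, and 44 to 57 when each library was left out. In axons adjusted calls (8) became 4 with a pseudocount of 0.1 and 7 to 11 when each library was left out; unadjusted calls (35) became 21, 20, 18 and 15 under the same 4 settings, 22 without libraries of high mitochondrial share (chosen after seeing the data), and 21 to 37 when each library was left out. Between compartments in Control, adjusted calls (7) became 15 unscaled, 14 in 1 fit, 3 for members of at least 10 FPKM and 6 to 10 with a library left out; unadjusted calls (25) became 48 in 1 fit, 48 with the block, 11 for members of at least 10 FPKM and 27 to 36 with a library left out. In knockdown, adjusted calls were 0 throughout; the 1 unadjusted call became 2 unscaled, with quantile normalization, array weights, the block or without shallow libraries, 3 in 1 fit, 0 with a pseudocount of 5, no filter or a mean of at least 5 FPKM, 7 without libraries of high mitochondrial share, and 0 to 6 with a library left out. For differences between compartments, adjusted calls (0) became 1 with a pseudocount of 5 and 0 to 3 with a library left out; unadjusted calls (32) became 6 at a mean of at least 5 FPKM, 15 without shallow libraries, 4 for members of at least 10 FPKM and 25 to 32 with a library left out. The causes were not tested, beyond the smaller number of genes or libraries where a setting removes them. No pair of libraries of the same number had a correlation over 0.1 over 8825 genes. Between compartments, correlations were -0.059 to 0.031 in Control and -0.051 to 0.050 in knockdown. Between Control and knockdown they were -0.0097 to 0.085 in axons and -0.044 to 0.081 in the somatodendritic compartment. There, 2 of 4 axonal and 1 of 4 somatodendritic Control libraries correlated best with their own number. With so few libraries this cannot settle whether those of the same number share a culture, which the labels do not say. Depth limits all single-member results, since 63.05% of the values above 0 were at most 1 fragment.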
